A study of Mus musculus with 16 samples.

Results

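The genes of oxidative phosphorylation were followed through the cortex and the striatum of mice that lose Trrap in forebrain neurons. They are 98 protein-coding genes out of 53801 genes in the count table, chosen by name: the Nduf genes other than the Ndufaf assembly factors, the Uqcr, Atp5 and Cox4 to Cox8 genes, Sdha to Sdhd, and the 13 protein-coding genes of the mitochondrial genome. Of these, 85 lie in the nuclear genome, with 38 in complex I, 4 in complex II, 8 in complex III, 18 in complex IV and 17 in complex V. The mitochondrial genome contributes 7 to complex I, 1 to complex III, 3 to complex IV, 2 to complex V and 0 to complex II. The rule used names and no measured value, though it was set with earlier results of these data known. Left out were 13 genes with the same prefixes that are not protein-coding.

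Oxidative phosphorylation couples the flow of electrons along the inner mitochondrial membrane to the synthesis of ATP. Complexes I and II pass electrons from NADH and succinate to ubiquinone, complex III hands them to cytochrome c, complex IV reduces oxygen, and complex V, the ATP synthase, uses the resulting proton gradient. Except for complex II, which is wholly nuclear, each complex joins subunits from both genomes, and neurons depend on it for much of their ATP. Trrap is a large adaptor protein of histone acetyltransferase complexes.

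Trrap-FBΔ mice carried Trrap Fl/Fl with the Camk2-Cre tg transgene, and control mice carried Trrap Fl/+ with the same Camk2-Cre tg transgene. Cre was thus present in both groups, and controls carried 1 floxed and 1 wild-type allele. Each genotype comparison therefore sets homozygous against heterozygous floxed mice, both with Cre, and not against mice with intact Trrap. The strain was C57BL6/J-129sv and the mice were 10 days old. Each of the 4 groups had 4 libraries, 16 in all, and totals ran from 28743866 to 48761429 assigned counts per library. Mice 57, 59, 60 and 61 gave both tissues of Trrap-FBΔ, whereas the controls were mice 55, 58, 63 and 64 for the cortex and 58, 63, 64 and 65 for the striatum. Sexes were unequal, with 3 females and 1 male among the Trrap-FBΔ mice, 2 and 2 among the cortex controls and 1 and 3 among the striatum controls. Camk2-Cre acts in forebrain excitatory neurons while the RNA came from whole tissue, so in every comparison fewer cells of a type and less RNA per cell cannot be told apart.

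The labels were checked against marker genes. Counts on the whole Trrap gene overlapped between genotypes in both tissues (log2 fold change -0.18, SE 0.08, adjusted p = 0.0826 in the cortex and -0.04, SE 0.05, adjusted p = 0.519 in the striatum, edgeR), so directions follow the labels. The summed level of 10 markers of cortical excitatory neurons was 1705 to 2083 CPM (counts scaled to a common library size, with TMM scaling between libraries) in the 8 cortex libraries and 573 to 911 in the 8 striatum libraries. The sum of 12 markers of striatal projection neurons, in contrast, did not separate the tissues: it was 572 to 1240 CPM in the cortex and 388 to 1706 in the striatum, and in controls 1 of the 12 was higher and 2 were lower in the striatum. The 8 markers of mature oligodendrocytes were all higher in the striatum in both genotypes, with sums of 1329 to 3204 CPM in the cortex and 3218 to 9551 in the striatum. The part that the composition of the dissected tissue plays in the tissue differences was not tested. A pair of libraries stood apart for many members: control striatum 63, with the highest nuclear and mitochondrial shares of its group, and Trrap-FBΔ cortex 57, with the highest nuclear share of its group.

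The 13 mitochondrial members, which do not include mitochondrial rRNA, made up 3.53% to 6.15% of the counts of a library. The 85 nuclear members together made up 0.827% to 1.05%. Per kilobase of transcript, the scale on which genes can be compared, mt-Cytb, the mitochondrial subunit of complex III, had a mean of 10239 CPM over the 16 libraries. It was followed by mt-Nd1 of complex I at 9162 and mt-Co1, the catalytic subunit of complex IV, at 6619 CPM per kilobase. The highest nuclear members were Cox4i1, a regulatory subunit of complex IV, at 493 and Atp5b, the catalytic beta subunit of the ATP synthase, at 474 CPM per kilobase. The leading members of the remaining complexes were Ndufa4, first described in complex I and now placed with complex IV, at 311, Uqcrh, the hinge protein of complex III, at 269, and Sdhb, the iron-sulphur subunit of succinate dehydrogenase, at 118 CPM per kilobase. Isoforms known from muscle, testis or lung were low on the nuclear scale: Cox6a2 at 5.62, Cox6b2 at 5.45, Cox7a1 at 2.74, Cox4i2 at 1.33 and Cox7b2 at 1.2 CPM per kilobase. So were Ndufa4l2 at 2.62, Atp5g2 at 1.72 and Ndufs5 at 0.784, and Cox8b and Cox8c were lowest at 0.159 and 0.00359 CPM per kilobase.

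Among the mitochondrial genes 6 were almost without counts in every library. Over all 16 libraries mt-Nd3, mt-Nd4l, mt-Atp6 and mt-Atp8 had 0 counts, mt-Co3 had 1 and mt-Co2 had 2, while their neighbours mt-Co1 and mt-Nd4 had 6658693 and 3012904. A count of 0 in 651865570 allows a level of up to 0.00460 CPM, by counting error only. The table holds only uniquely mapped reads of 51 bases, so every 51-base window of each transcript was looked up in the transcripts of all other genes. For mt-Co2 100% of windows had an identical copy elsewhere, for mt-Co3 99.9%, for mt-Atp6 99.5%, for mt-Nd4l 98.8% and for mt-Nd3 98.0%. All 5 matched a row of unprocessed pseudogenes on chromosome 1 between positions 24611535 and 24616197 (GRCm38). The copies were nearly without counts as well, with 12 for Gm28661, the copy of mt-Co2, and at most 655, for Gm28438, the copy of mt-Nd3. For mt-Atp8 0% of windows matched an annotated transcript. The gene starts between mt-Co2 and mt-Atp6. Their chromosome 1 copies, Gm28661 from position 24614885 and Gm10925 up to 24614651, leave a stretch between them. Reads were aligned to the genome, whereas the lookup covered annotated transcripts only, so a copy outside these would not have been found. The 0% thus does not show that mt-Atp8 has no copy, and the cause of its empty row was not tested. The middle 51-base window of mt-Co2, which is found unchanged in Gm28661, and that of mt-Cytb, which is found in no other transcript, show the contrast between a gene without and a gene with unique reads:
mt-Co2, chrM:7329-7379, plus strand: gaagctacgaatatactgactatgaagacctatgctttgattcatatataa
mt-Cytb, chrM:14691-14741, plus strand: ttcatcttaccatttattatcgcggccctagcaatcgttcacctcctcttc

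Partly covered genes lie at the edges of the row: 50.6% of windows of mt-Co1 and 62.2% of mt-Nd4 were shared, against 8.00% of mt-Nd2, 7.21% of mt-Nd5 and 0% of mt-Nd1, mt-Nd6 and mt-Cytb. Levels per kilobase of mt-Co1 and mt-Nd4 are thus not on the same footing as those of mt-Nd1 and mt-Cytb, and the shares of counts above leave out whatever the empty genes produced. In all, 90 members passed the filter on low counts in each comparison. The other 8 were the 6 empty mitochondrial genes, Cox8b with 35 counts and Cox8c with 1 count over 16 libraries.

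**Figure D1:**
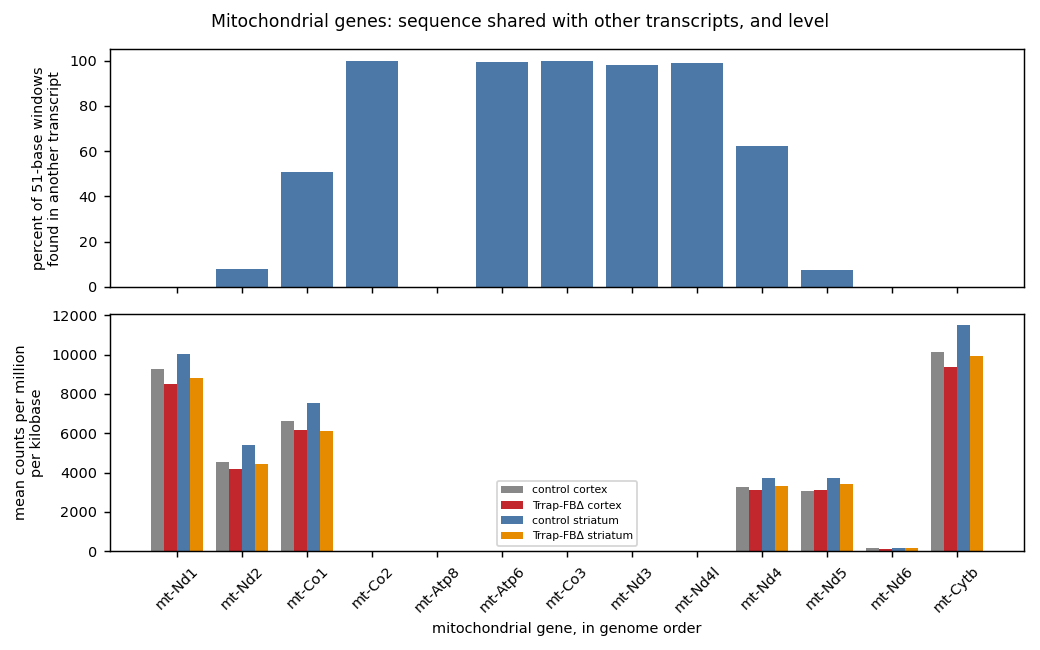
The upper bars give the percent of 51-base windows of each mitochondrial gene that also occur in a transcript of another gene, and the lower bars the mean CPM per kilobase in each group of 4 libraries, with genes in genome order. The 5 genes with 98.0% to 100% of windows shared, and mt-Atp8 with 0% shared, have bars at 0 in the lower panel.

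The first question is whether the loss of Trrap changed these genes in the cortex. A subset of complex V, IV, III and II subunits was lower in Trrap-FBΔ, while a few complex I subunits were higher, all by small amounts. Of 90 members tested 5 were higher and 7 lower at an adjusted p under 0.05 (edgeR quasi-likelihood test, Benjamini-Hochberg over all genes), against 15.7% higher and 17.6% lower among all 18268 genes tested. Both directions together, 13.3% of members were called, against 33.3% of all genes. The 4 higher members of complex I were Ndufs8, Ndufb3, Ndufs4 and Ndufb7, and the other higher member was Atp5s, a coupling factor of the ATP synthase. The 7 lower members were Sdhd, Uqcrh, Cox5a, Cox7b, Atp5b, Atp5g1 and Atp5o. Groups did not overlap for 7 members, whereas 32.7% of all genes had groups that did not overlap. The median log2 fold change was 0.02 for the 83 nuclear and -0.11 for the 7 mitochondrial members tested, beside 0.00 for all genes. Without the library Trrap-FBΔ cortex 60 the calls fell to 7, of which 4 were higher and 3 lower, and under upper-quartile scaling 8 of 15 calls were higher. In a test against a change of 1.2-fold 0 members were called.

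Ndufs8, an iron-sulphur subunit of complex I (chr19:3908863-3912774), had 48.8, 54.6, 61.4 and 52.0 CPM in the control cortex and 78.8, 66.4, 65.6 and 67.2 CPM in Trrap-FBΔ. All mutant libraries were above all controls, and the log2 fold change was 0.36 (SE 0.08, adjusted p = 0.00477, edgeR). Ndufb3, an accessory subunit of complex I (chr1:58586384-58595964), had 30.0, 32.8, 36.5 and 31.8 CPM in controls and 46.9, 38.2, 40.2 and 40.0 in Trrap-FBΔ, again without overlap (log2 fold change 0.33, SE 0.08, adjusted p = 0.00700, edgeR). Both calls held without any single library. Ndufs4, an accessory subunit needed for a stable complex I, went from 75.6 ± 4.66 to 88.0 ± 8.50 CPM (SD, n = 4, edgeR adjusted p = 0.0312), and its call was lost without control cortex 58 or 64 or Trrap-FBΔ cortex 57 or 60 (adjusted p up to 0.0879). Ndufb7 (adjusted p = 0.0405, edgeR) lost its call without control cortex 55, 58 or 64 or Trrap-FBΔ cortex 57 or 61 (up to 0.0929), and Atp5s (adjusted p = 0.0191) without control cortex 58 (0.0545). With sex as a covariate the calls of Ndufs4 and Ndufb7 were lost as well (edgeR adjusted p = 0.0608 and 0.0774).

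In the striatum 14.4% of the 90 members were called, against 30.2% of all genes, and nearly all called members were lower. In Trrap-FBΔ 1 member was higher and 12 were lower, against 14.4% higher and 15.8% lower among 18872 genes (edgeR). Lower calls were thus no more frequent than among all genes, and higher calls were rarer. The lower members came from every complex and from both genomes: Ndufb5, Ndufb8 and mt-Nd2 of complex I, Sdhb and Sdhd of complex II, Uqcrh and Uqcrfs1 of complex III, Cox5a and Cox7b of complex IV, and Atp5b, Atp5g1 and Atp5o of complex V. The higher member was Cox6b2. Groups did not overlap for 19 members, against 31.6% of all genes. On the TMM scale, median log2 fold changes were -0.09 for nuclear and -0.21 for mitochondrial members, beside -0.01 for all genes. On that scale 68 of the 90 members had a value below 0. As unscaled shares of all counts, nuclear members had means of 0.959% in control and 0.950% in Trrap-FBΔ striatum, with overlap. Mean shares of nuclear complexes I and II were slightly higher in Trrap-FBΔ, and those of III, IV and V slightly lower. How far the 68 depends on the scaling was not tested. The number of calls was 8 without Trrap-FBΔ striatum 57 and 20, with 7 higher and 13 lower, without control striatum 63. Against a change of 1.2-fold only Cox6b2 was called.

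By complex, the nuclear medians in the cortex were 0.04 for I, -0.03 for II, 0.03 for III, 0.02 for IV and -0.03 for V. In the striatum they were -0.06, -0.09, -0.13, -0.08 and -0.12 in the same order. All 8 nuclear members of complex III and all 7 tested mitochondrial members had values below 0 in the striatum, though only 2 and 1 of them were called. With Ndufa4 counted in complex IV the medians were 0.02 and -0.09 for complex IV and 0.05 and -0.06 for complex I.

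**Figure D2:**
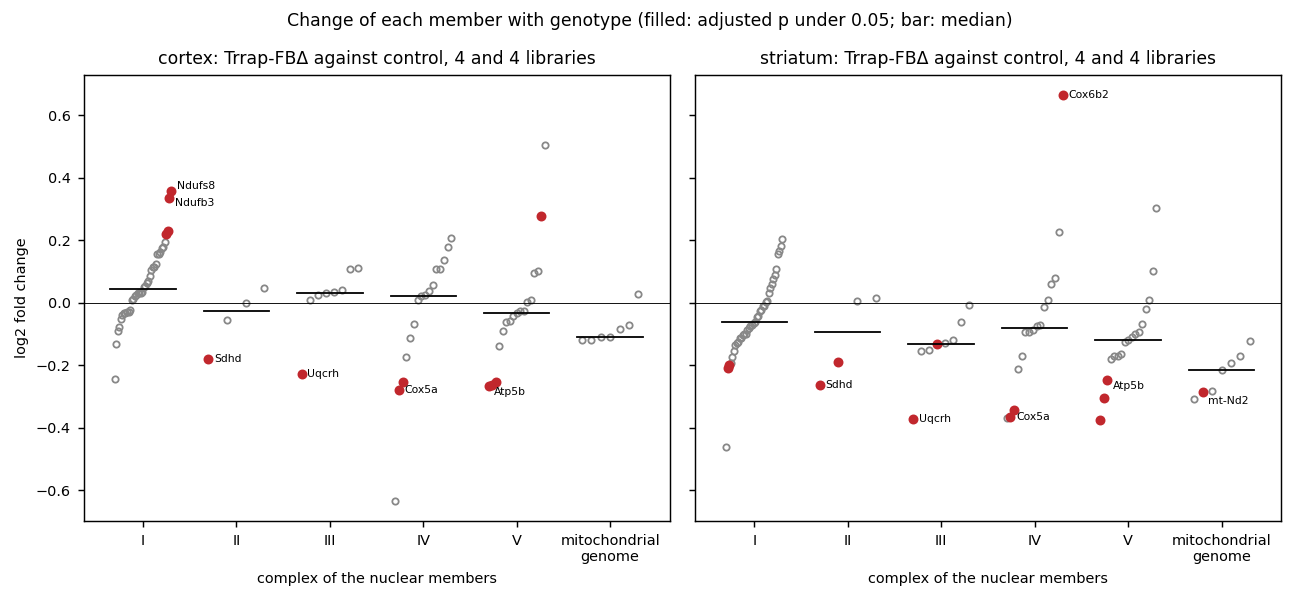
Each point is the log2 fold change of 1 tested member between Trrap-FBΔ and control, by complex for nuclear members and together for mitochondrial ones; filled points have an adjusted p under 0.05 and bars are medians. Called points lie below 0 in complexes II, III and IV in the cortex, those of complex I lie above 0 there, and in the striatum Cox6b2 is the only called point above 0.

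The 7 members that fell in the cortex were lower in the striatum too. They are 7.78% of the 90 members, whereas 19.1% of the 17938 genes tested in both tissues were called in both. The tissues share mice, so the repeated direction is not independent. The members are spread over complexes II to V.

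Atp5b (chr10:128083273-128090391) had the highest level of these. It had 904, 1029, 1075 and 985 CPM in the control cortex and 838, 798, 809 and 878 in the Trrap-FBΔ cortex, without overlap (log2 fold change -0.27, SE 0.07, adjusted p = 0.0100, edgeR). In the striatum the values were 993, 943, 971 and 1004 CPM in controls and 807, 823, 790 and 875 in Trrap-FBΔ, with the same separation (-0.25, SE 0.06, adjusted p = 0.00912). Atp5o, the oligomycin sensitivity conferring protein that joins the catalytic head of the ATP synthase to its stalk (chr16:91925214-91931687), had 132, 134, 154 and 139 CPM in the control and 128, 111, 113 and 116 in the Trrap-FBΔ cortex. Its striatal values were 144, 175, 145 and 142 CPM in controls and 115, 124, 122 and 132 in Trrap-FBΔ. Neither tissue showed overlap (log2 fold changes -0.25, SE 0.06, adjusted p = 0.00853 and -0.30, SE 0.07, adjusted p = 0.0116, edgeR), and 35.0% of the gene's windows occur in other transcripts. For Atp5b and Atp5o both calls held without any single library.

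Atp5g1, 1 of 3 genes for the c subunit that forms the membrane ring of the ATP synthase (chr11:96068852-96075670), had 11.9, 13, 13.9 and 13 CPM in the control cortex and 11.8, 9.91, 10.7 and 10.9 in Trrap-FBΔ. In the striatum it had 14.5, 15.8, 16.2 and 18.2 CPM in controls and 12.6, 12.0, 12.9 and 12.5 in Trrap-FBΔ. Groups were apart in both tissues, narrowly so in the cortex (log2 fold changes -0.26, SE 0.07, adjusted p = 0.0196 and -0.37, SE 0.07, adjusted p = 0.00450, edgeR). The cortical call was lost without control cortex 63 or Trrap-FBΔ cortex 59 or 60 (adjusted p up to 0.0629). The paralogue Atp5g3, which encodes the same mature protein and had 207 ± 16.5 CPM in the control cortex (SD, n = 4), was not called in either tissue (log2 fold changes -0.06 and -0.09, SE 0.06 and 0.05). For the other paralogue Atp5g2 87.4% of windows were shared with other transcripts, and its log2 fold changes were 0.50 and 0.30 (SE 0.22 and 0.14, adjusted p = 0.0933 and 0.130, edgeR).

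Cox5a, a nuclear subunit of complex IV (chr9:57521274-57532426), had 138, 140, 166 and 151 CPM in the control cortex and 140, 115, 115 and 121 in Trrap-FBΔ, where the library of mouse 57 lay within the controls. In the striatum it had 143, 156, 146 and 145 CPM in controls and 109, 114, 111 and 125 in Trrap-FBΔ, without overlap. The log2 fold changes were -0.28 (SE 0.08, adjusted p = 0.0154) and -0.36 (SE 0.05, adjusted p = 0.00102, edgeR). Cox7b, another small subunit of complex IV (chrX:106015700-106022450), had 150, 143, 165 and 148 CPM in controls and 147, 115, 123 and 122 in Trrap-FBΔ in the cortex, with mouse 57 again among the controls. Its striatal values were 147, 179, 151 and 155 CPM in controls and 121, 125, 125 and 127 in Trrap-FBΔ, all lower. Its log2 fold changes were -0.25 (SE 0.07, adjusted p = 0.0217) and -0.34 (SE 0.06, adjusted p = 0.00271, edgeR). In the cortex the call of Cox5a was lost without Trrap-FBΔ cortex 59 or 60 (adjusted p up to 0.0569) and that of Cox7b without control cortex 63 or Trrap-FBΔ cortex 59, 60 or 61 (up to 0.0716).

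Uqcrh, the hinge protein of complex III (chr4:116066965-116075071), had 153, 147, 158 and 145 CPM in the control cortex and 146, 121, 128 and 122 in Trrap-FBΔ, with mouse 57 reaching the lowest control. In the striatum it had 161, 199, 168 and 171 CPM in controls and 131, 138, 132 and 138 in Trrap-FBΔ, without overlap. The log2 fold changes were -0.23 (SE 0.06, adjusted p = 0.0163) and -0.37 (SE 0.06, adjusted p = 0.00236, edgeR). Sdhd, a membrane anchor of succinate dehydrogenase (chr9:50596357-50603812), had 101, 103, 116 and 109 CPM in controls and 105, 89.7, 94.2 and 90.6 in Trrap-FBΔ in the cortex, where mouse 57 exceeded 2 controls. In the striatum it had 108, 121, 108 and 110 CPM in controls and 88.1, 93.7, 96.7 and 93.7 in Trrap-FBΔ, all lower. The changes were -0.18 (SE 0.06, adjusted p = 0.0380) and -0.26 (SE 0.05, adjusted p = 0.00415, edgeR). The cortical call of Uqcrh was lost without Trrap-FBΔ cortex 59, 60 or 61 (adjusted p up to 0.0567), and that of Sdhd without control cortex 63 or 64 or Trrap-FBΔ cortex 59, 60 or 61 (up to 0.118) and with sex as a covariate (0.0588). In the striatum all 7 calls held without any single library.

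**Figure D3:**
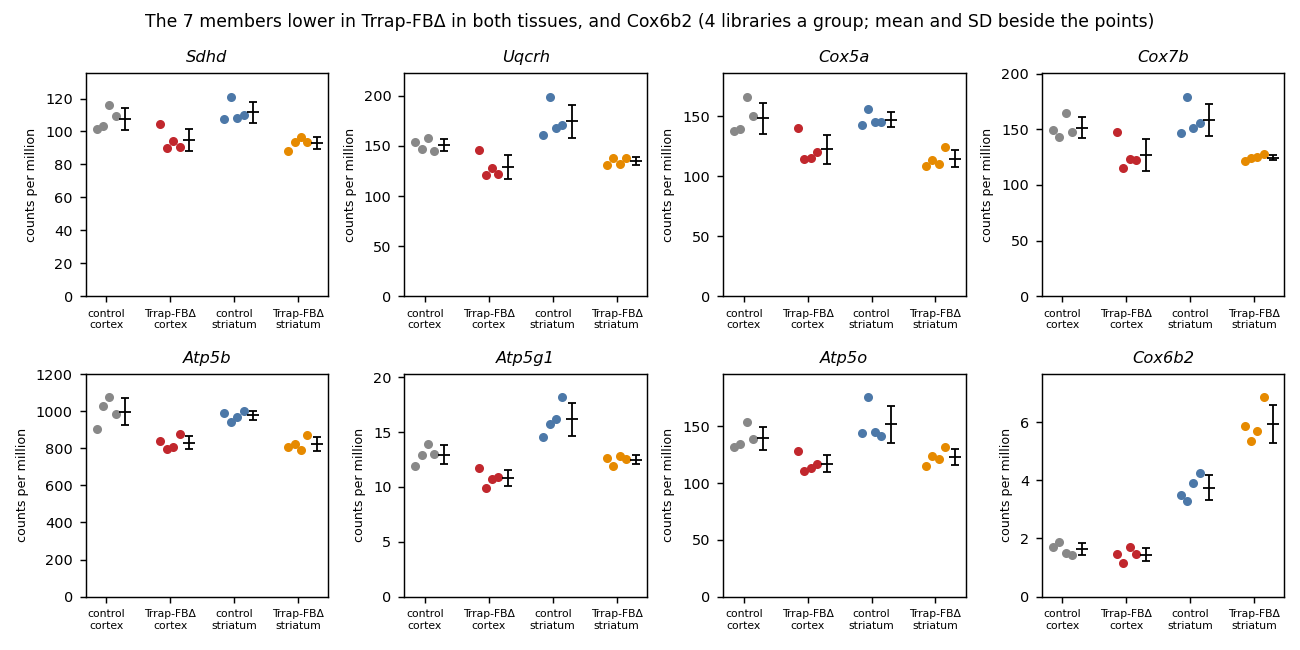
Points are the TMM-scaled CPM of single libraries in the 4 groups of 4, with the mean and SD beside them, for the 7 members lower in both tissues and for Cox6b2. In the striatum no Trrap-FBΔ point of the 7 genes reaches a control point, in the cortex 1 Trrap-FBΔ point of Sdhd, Uqcrh, Cox5a and Cox7b does, and Cox6b2 is highest in the Trrap-FBΔ striatum.

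Promoters of the nuclear members were searched for 4 motifs of factors known to act on respiratory genes. These were GGGCGG of Sp1, CCGGAAG of the ETS factors that include GABP, TGCGCA, a half-site of NRF1, and AAGATGGCG of YY1. Both strands were searched from 250 bases before to 50 after the RefSeq start (GRCm38.p6), and none of the motifs contains another. A promoter was listed for 69 of the 85 nuclear members, 74 promoters in all. The ETS letters occurred in 21.6% of members' promoters, in 8.86% of all 32851 promoters and in 11.6% of the 21263 promoters of protein-coding genes. In the same order TGCGCA occurred in 25.7%, 7.76% and 9.74%, the YY1 letters in 9.46%, 1.40% and 1.83%, and GGGCGG in 40.5%, 35.7% and 46.2%. Of the 7 members lower in both tissues, 4 held at least 1 motif and Atp5g1, Atp5o and Cox7b held none in this window. In the promoters of these 7, GGGCGG occurred in 42.9%, the ETS letters in 28.6%, TGCGCA in 14.3% and the YY1 letters in 0%. The share of all promoters with at least 1 of the 4 motifs was not counted. Whether the motifs bear on the lower levels was not tested. The 4 with a motif are printed as examples, with each motif on either strand in capitals:
Atp5b, chr10:128083057-128083356, plus strand: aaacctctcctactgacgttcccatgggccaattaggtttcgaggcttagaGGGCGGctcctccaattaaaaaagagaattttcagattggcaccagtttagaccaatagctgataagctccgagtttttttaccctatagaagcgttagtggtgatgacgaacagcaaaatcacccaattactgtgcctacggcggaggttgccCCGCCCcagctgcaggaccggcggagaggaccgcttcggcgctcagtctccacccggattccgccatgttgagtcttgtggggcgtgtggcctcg
Cox5a, chr9:57520982-57521281, plus strand: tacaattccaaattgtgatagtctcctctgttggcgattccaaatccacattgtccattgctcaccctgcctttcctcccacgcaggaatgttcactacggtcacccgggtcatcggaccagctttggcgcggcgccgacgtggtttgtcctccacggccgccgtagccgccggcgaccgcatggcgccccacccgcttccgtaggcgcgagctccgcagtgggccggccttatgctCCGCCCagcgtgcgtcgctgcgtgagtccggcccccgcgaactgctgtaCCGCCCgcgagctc
Sdhd, chr9:50603800-50604099, minus strand: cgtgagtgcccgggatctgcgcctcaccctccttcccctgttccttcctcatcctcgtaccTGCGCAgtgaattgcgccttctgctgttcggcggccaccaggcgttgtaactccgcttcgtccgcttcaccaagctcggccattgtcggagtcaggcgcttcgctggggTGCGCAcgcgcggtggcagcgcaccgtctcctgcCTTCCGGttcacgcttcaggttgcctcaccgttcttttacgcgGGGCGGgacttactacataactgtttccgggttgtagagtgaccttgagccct
Uqcrh, chr4:116075021-116075320, minus strand: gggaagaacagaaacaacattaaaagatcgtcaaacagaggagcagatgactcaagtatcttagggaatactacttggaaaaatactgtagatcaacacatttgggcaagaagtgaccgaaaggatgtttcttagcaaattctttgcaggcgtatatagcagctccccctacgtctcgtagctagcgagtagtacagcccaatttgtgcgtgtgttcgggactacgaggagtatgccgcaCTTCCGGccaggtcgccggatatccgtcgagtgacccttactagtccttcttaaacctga
Atp5b and Cox5a each held 2 copies of the Sp1 letters, Uqcrh held the ETS letters and Sdhd held the Sp1, ETS and NRF1 letters, so no motif was found in all 7.

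Members called in the striatum and not in the cortex included a gene of the mitochondrial genome. mt-Nd2, a core subunit of complex I (chrM:3914-4951), had 5169, 6286, 5134 and 5758 CPM in control striatum and 4548, 4953, 4541 and 4302 in Trrap-FBΔ, without overlap. Its log2 fold change was -0.28 (SE 0.09, adjusted p = 0.0355, edgeR). The call was lost without control striatum 65 or Trrap-FBΔ striatum 57, 60 or 61 (adjusted p up to 0.0808). The other 6 tested mitochondrial genes ranged from -0.12 for mt-Nd5 to -0.31 for mt-Co1 (SE 0.11, adjusted p = 0.0602, edgeR), the latter without overlap. mt-Nd6, the gene on the opposite strand, had 94.5 ± 21.8 CPM in control and 77.7 ± 15.8 in Trrap-FBΔ striatum (SD, n = 4, edgeR adjusted p = 0.244). As a share of all counts the mitochondrial genes made up 5.26% ± 0.614 in control and 4.78% ± 0.203 in Trrap-FBΔ striatum (SD, n = 4), with overlap. In the cortex the shares were 4.28% ± 0.222 and 4.21% ± 0.502, and the 7 log2 fold changes lay between -0.12 and 0.03.

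The remaining lower members in the striatum had smaller changes. Ndufb5, an accessory subunit of complex I, went from 105 ± 6.93 to 91.5 ± 2.36 CPM (SD, n = 4, edgeR adjusted p = 0.0168), and its call was lost without Trrap-FBΔ striatum 57 (0.0543). Ndufb8, another accessory subunit, went from 124 ± 13.7 to 107 ± 2.82 CPM (edgeR adjusted p = 0.0444) and lost its call without any 1 of the 4 Trrap-FBΔ libraries (up to 0.104). Sdhb went from 145 ± 13.5 to 127 ± 3.02 CPM (edgeR adjusted p = 0.0437), and the call was lost without control striatum 64 or any 1 of the 4 Trrap-FBΔ libraries (up to 0.106). Uqcrfs1, the Rieske iron-sulphur protein of complex III, went from 115 ± 2.62 to 105 ± 2.77 CPM (edgeR adjusted p = 0.0325), and its call was lost without control striatum 58 or any 1 of the 4 Trrap-FBΔ libraries (up to 0.104). Upper-quartile scaling ended the calls of Ndufb8, Sdhb and Uqcrfs1 (edgeR adjusted p = 0.0816, 0.0852 and 0.0757), and sex as a covariate that of Uqcrfs1 (0.0755). The other complex II genes, Sdha, which holds the flavin, and the anchor Sdhc, were not called in either tissue, with log2 fold changes from -0.00 to 0.05 (SE 0.05 or 0.06).

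The largest change of any called member was a rise. Cox6b2, the isoform of a complex IV subunit best known from testis (chr7:4751792-4753094), had 3.49, 3.30, 3.92 and 4.27 CPM in control striatum and 5.86, 5.35, 5.68 and 6.86 in Trrap-FBΔ. All mutant values were above all controls, with a log2 fold change of 0.66 (SE 0.11, adjusted p = 0.00217, edgeR) and a call that held without any single library. In the cortex it had 1.72, 1.87, 1.51 and 1.45 CPM in controls and 1.46, 1.14, 1.72 and 1.46 in Trrap-FBΔ, which overlapped (-0.17, SE 0.16, adjusted p = 0.438). Its widespread counterpart Cox6b1 had 245 ± 28.4 CPM in control and 218 ± 5.65 in Trrap-FBΔ striatum (SD, n = 4, edgeR adjusted p = 0.106). Per kilobase Cox6b2 had 6.4 CPM in control and 10.1 in Trrap-FBΔ striatum, and Cox6b1 had 396 and 352. The only other member whose estimate exceeded 1.5-fold was Cox7b2, at 0.762 ± 0.140 and 0.494 ± 0.184 CPM in the control and Trrap-FBΔ cortex (SD, n = 4, edgeR adjusted p = 0.0930), which did not pass.

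An interaction of genotype and tissue, fitted to the 16 libraries together, tested whether the effect of genotype differed between tissues. No member passed (0 of 90 by edgeR, 3 with an unadjusted p under 0.05, and 1, Cox6b2, by DESeq2), against 0.437% of all 19438 genes. Of the 90 estimates 79 were below 0, that is, the log2 fold change with genotype was lower in the striatum than in the cortex. Medians were -0.11 for nuclear and -0.15 for mitochondrial members, beside -0.01 for all genes. How many of all genes were below 0 was not counted. High values in control striatum 63 or Trrap-FBΔ cortex 57, the libraries that stood apart, lower this estimate. The part of these libraries in the 79 was not tested. The estimate for Cox6b2 was 0.84 (SE 0.19, adjusted p = 0.0605, edgeR), and its adjusted p ranged from 0.00924 with DESeq2 to 0.312 in a test against 1.2-fold, and was 0.0382 without control striatum 65. The other 4 with the smallest p were Uqcrfs1 (-0.17, SE 0.07), Ndufa8, an accessory subunit of complex I (-0.19, SE 0.09), Ndufb5 (-0.15, SE 0.08) and Ndufs4 (-0.22, SE 0.11), with adjusted p from 0.317 to 0.463 (edgeR). Thus members called in 1 tissue and not in the other were not shown to differ between tissues. With mouse as a block, which pairs the libraries of 1 animal, the number of calls was also 0.

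Shares of counts were compared at the level of genomes and complexes. Nuclear members made up 0.879% ± 0.0517 of counts in control and 0.916% ± 0.0596 in Trrap-FBΔ cortex, and 0.959% ± 0.0597 and 0.950% ± 0.0202 in the striatum (SD, n = 4). For each of the 5 complexes the ranges of the genotypes overlapped in both tissues. Mean striatal shares were slightly higher in Trrap-FBΔ for nuclear complex I (0.280% in control and 0.285%) and complex II (0.0676% and 0.0682%). They were slightly lower for complexes III, IV and V. The ratio of mitochondrial to nuclear share was 4.88 ± 0.316 in control and 4.6 ± 0.488 in Trrap-FBΔ cortex, and 5.47 ± 0.320 and 5.03 ± 0.283 in the striatum, with overlap in both tissues (SD, n = 4).

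**Figure D4:**
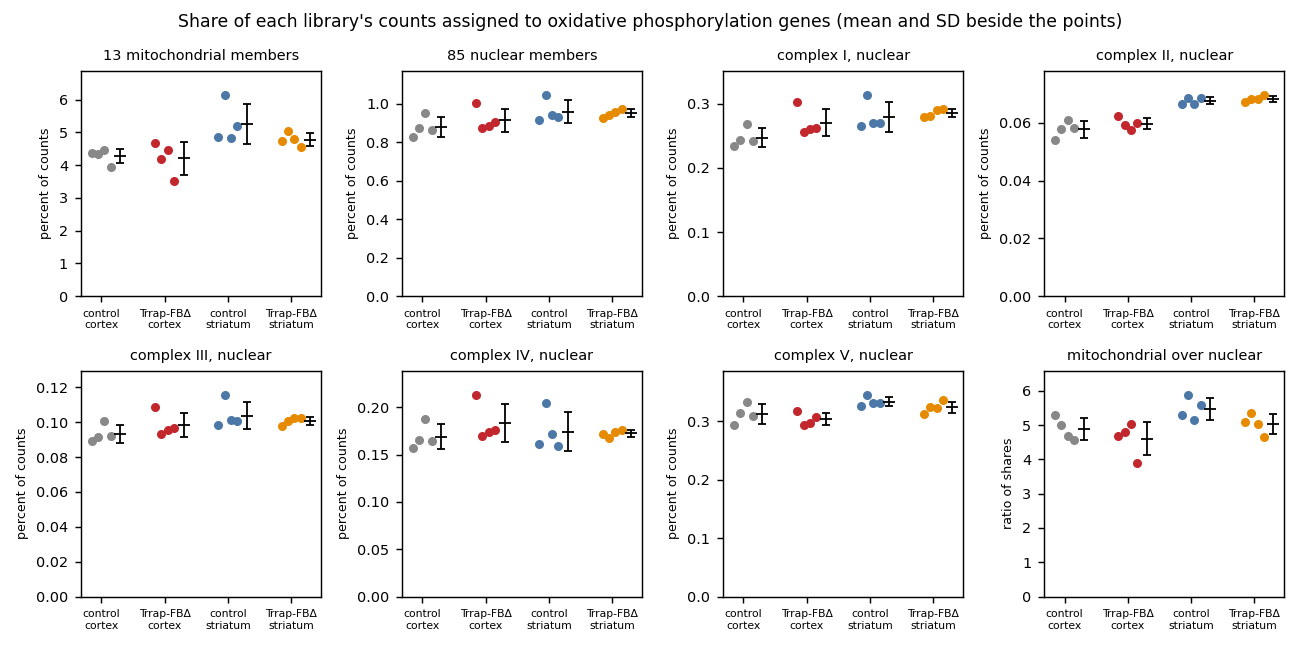
Each point is 1 library, and the panels give the percent of its assigned counts that fell on mitochondrial members, on nuclear members and on those of each complex, and the ratio of the mitochondrial to the nuclear share, with mean and SD beside the points. Genotypes overlap in every panel, and complex II is the only nuclear complex in which the tissues separate in both genotypes.

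The striatum was compared with the cortex within each genotype. In controls 14 of 90 members were higher in the striatum and 0 were lower (edgeR, with 21 higher and 2 lower at an unadjusted p under 0.05, and 14 higher and 0 lower by DESeq2), against 20.3% higher and 20.1% lower among 18284 genes. Medians of the log2 fold change were 0.07 for nuclear and 0.19 for mitochondrial members, beside 0.01 for all genes. The count was 6 without control cortex 64, 7 without control cortex 58, 8 without control striatum 65 and 22 under upper-quartile scaling. In Trrap-FBΔ 7 members were higher and 19 lower in the striatum, against 27.4% higher and 27.4% lower among 18872 genes, with medians of -0.03 and 0.08. Under upper-quartile scaling 12 of 20 calls were higher. The same comparison in 2 genotypes gave 6 members higher in both: Ndufab1, Sdhc, Cox6a2, Cox6b2, Cox7a1 and Atp5g1. How many of all genes were higher in both was not counted.

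Tissue isoforms of complex IV showed the largest differences. Cox6b2 was higher in the striatum by 1.2 on the log2 scale in controls (SE 0.14, adjusted p = 8.24e-05) and by 2.03 in Trrap-FBΔ (SE 0.13, adjusted p = 1.22e-07, edgeR), and in 7 of 7 mice with both tissues. Cox7a1, the heart and skeletal muscle form of another subunit, had 0.987, 0.591, 0.727 and 0.723 CPM in control cortex and 1.57, 1.41, 1.13 and 1.32 in control striatum, without overlap (log2 fold change 0.86, SE 0.19, adjusted p = 0.00446, edgeR). Its difference in Trrap-FBΔ was 0.91 (SE 0.17, adjusted p = 0.000776). Cox6a2, likewise a muscle form, went from 2.78 ± 0.902 to 4.37 ± 0.519 CPM in controls (SD, n = 4, edgeR adjusted p = 0.0265) and from 3.04 ± 0.256 to 5.10 ± 1.34 in Trrap-FBΔ (adjusted p = 0.00203). In controls its call was lost without control cortex 55, 63 or 64 or control striatum 58, 63 or 65 (adjusted p up to 0.0729). The widespread forms lay on the other side of 0 in Trrap-FBΔ: Cox6a1 at -0.27 (SE 0.07), Cox6b1 at -0.19 (SE 0.06), Cox7a2 at -0.18 (SE 0.06), Cox4i1 at -0.26 (SE 0.07) and Cox8a at -0.33 (SE 0.07), all called (edgeR adjusted p from 0.00122 to 0.0256), while in controls none of these 5 was called in the fit without a block. The call of Cox6b1 was lost in 2 of 8 and that of Cox7a2 in 0 of 8 fits without 1 library, and both were lost under upper-quartile scaling (adjusted p = 0.135 and 0.115).

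Outside the Cox genes, the largest falls from cortex to striatum in Trrap-FBΔ were those of Uqcr11 at -0.38 (SE 0.09) and Uqcrq at -0.37 (SE 0.08), both of complex III. Next came Ndufa4 at -0.31 (SE 0.07), counted in complex I by its name but now placed with complex IV. All 3 calls held without any single library (edgeR adjusted p from 0.00220 to 0.00240). Ndufa4 had 242, 194, 196 and 190 CPM in Trrap-FBΔ cortex and 162, 165, 167 and 169 in Trrap-FBΔ striatum, without overlap. In controls the same 3 genes had differences of -0.12, -0.12 and -0.10 and were not called. Ndufab1, the mitochondrial acyl carrier protein that is also a subunit of complex I, was higher in the striatum in both genotypes by 0.29 (SE 0.08, adjusted p = 0.0104) and 0.30 (SE 0.05, adjusted p = 0.000473, edgeR) and in 7 of 7 mice. Sdhc was higher by 0.18 and 0.19 (SE 0.05 each, adjusted p = 0.0127 and 0.00422, edgeR), and lost its call in controls without control cortex 64 (0.0512). The difference between the genotypes in these tissue contrasts is the interaction above, in which 0 members passed.

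**Figure D5:**
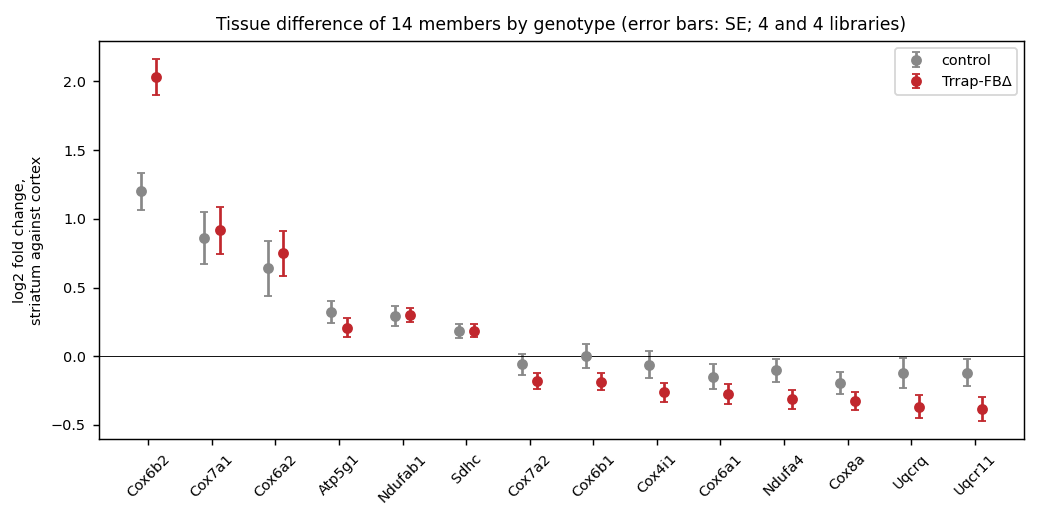
Points give the log2 fold change of striatum against cortex in controls and in Trrap-FBΔ for 14 members, with SE, from 4 and 4 libraries. Cox6b2, Cox7a1 and Cox6a2 lie furthest above 0, and the widespread forms such as Cox8a at -0.33 lie below 0 in Trrap-FBΔ.

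The share of counts on mitochondrial genes was higher in the striatum than in the cortex of control mice. These genes took 3.96% to 4.46% of counts in control cortex and 4.84% to 6.15% in control striatum, and the striatal share was higher in 7 of 7 mice with both tissues, genotypes together. Mitochondrial rRNA took 0.613% to 0.698% in control cortex and 0.801% to 1.09% in control striatum, and was higher in 6 of 7 mice. Called in controls were 2 of 7 tested genes, mt-Nd5 (0.29, SE 0.08, adjusted p = 0.0196) and mt-Nd2 (0.25, SE 0.09, adjusted p = 0.0380, edgeR), and both calls ended with mouse as a block. The 2 calls are 28.6% of the 7, against 20.3% of all genes called higher in that contrast. In Trrap-FBΔ 0 of 7 were called (0 by DESeq2 as well, and 0 at an unadjusted p under 0.05). The call of mt-Nd5 was lost without control cortex 64 or control striatum 65 (adjusted p up to 0.0796), and that of mt-Nd2 without control cortex 58, 63 or 64 or control striatum 58 or 65 (up to 0.125). With mouse as a block, which rests on the 3 control mice that gave both tissues, the comparison in controls called 13 members, 11 higher and 2 lower. The pairing ended 8 calls, among them mt-Nd2 (adjusted p = 0.104), mt-Nd5 (0.0644), Cox6a2 (0.0509), Atp5g1 (0.0553) and Ndufs5 (0.101), and added 7, among them mt-Nd6 (0.0312), Ndufs8 (0.0221), Ndufb7 (0.0387), Cox8a (0.0362) and Atp5d (0.0261, edgeR), of which Cox8a and Atp5d were lower in the striatum. In Trrap-FBΔ the block ended the call of Ndufa10 (0.0602) and added mt-Nd6 (0.0340). Complex II was the nuclear complex whose share separated the tissues, at 0.0540% to 0.0610% in control cortex and 0.0666% to 0.0686% in control striatum, and at 0.0574% to 0.0622% and 0.0670% to 0.0697% in Trrap-FBΔ.

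Some nuclear members also share sequence with copies. Ndufs5 of complex I had 349 counts over all libraries, and its processed pseudogene BC002163, identical to it at 317 of 319 positions, had 15625. For Ndufs5 30.8% of windows, for Ndufa12 26.0% and for Atp5l 68.4% occurred in other transcripts, and their levels are therefore uncertain. Among the 57 tested nuclear members with under 5% of windows shared, 4 were higher and 4 lower in the cortex and 1 higher and 7 lower in the striatum.

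Related genes outside the complexes were counted from fixed lists. Among all genes tested 15.7% were called higher and 17.6% lower in the cortex, and 14.4% and 15.8% in the striatum. Cycs, the somatic cytochrome c that carries electrons from complex III to IV, fell in both tissues (log2 fold changes -0.42 and -0.71, SE 0.07 and 0.10, adjusted p = 0.00157 and 0.000689, edgeR), and so did Atpif1, the inhibitor of the ATP synthase (-0.52 and -0.47, adjusted p = 0.000179 and 0.00724). Shared windows were not looked up for list genes. Whether they bear on low counts, as for Cycs at 13.6 and Gapdh at 9.57 CPM in the control cortex, was not tested. Coq8a and Coq7 of ubiquinone synthesis rose, by 0.91 and 0.66 in the cortex and 0.60 and 0.59 in the striatum. Of the 20 tested carriers, ubiquinone genes and other electron transport genes 8 were higher and 4 lower in the cortex, and 3 and 4 in the striatum. Of the 48 assembly factors tested 12 were higher and 4 lower in the cortex and 10 and 6 in the striatum. Of the 3 listed assembly factors of complex V, Atpaf1 and Atpaf2 rose in both tissues, by 0.26 to 0.30, and Tmem70 did not pass (log2 fold changes -0.01 and -0.14, edgeR adjusted p = 0.901 and 0.126). Among 24 factors of mitochondrial DNA and RNA the cortex had 7 higher and 1 lower and the striatum 4 higher and 2 lower, with Ssbp1, which binds single-stranded mitochondrial DNA, up by 0.34 and 0.37. Of 12 nuclear regulators 0 were higher and 4 lower in the cortex, and 2 and 4 in the striatum. The 2 higher were Nrf1, up by 0.39 (SE 0.05, adjusted p = 0.000625, edgeR), and Gabpb1, up by 0.20. Myc (-0.70 and -0.62) and Pprc1 (-0.32 and -0.26) were called lower in both tissues. In the cortex alone Sp1 (-0.29, adjusted p = 0.0118, edgeR) and Yy1 (-0.15, adjusted p = 0.0146) were called lower, and in the striatum alone Esrra (-0.26) and Ppargc1b (-0.32).

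Genes of glycolysis and of the TCA cycle were counted in the same way, beside the same shares of all genes. Of 16 glycolysis genes the cortex had 1 higher and 8 lower and the striatum 1 higher and 9 lower, and the medians were -0.20 and -0.25. The largest fall was that of Pfkp, the platelet form of phosphofructokinase, with cortical means of 699 CPM in control and 369 in Trrap-FBΔ and striatal means of 565 and 325 (log2 fold changes -0.92 and -0.80, adjusted p = 1.61e-05 and 0.000155, edgeR), while Pfkl, the liver form, rose by 0.52 and 0.30. Of 13 genes of the TCA cycle the cortex had 1 higher and 2 lower and the striatum 1 higher and 3 lower, and the medians were 0.02 and -0.06. Cs, citrate synthase, fell too, with cortical means of 323 and 264 CPM and striatal means of 292 and 241 (edgeR adjusted p = 0.00284 and 0.0145).

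Markers of cell types moved with genotype beside these values. The shares of all genes called higher or lower were those given for the lists above. Of 10 markers of immature neurons 1 was higher and 8 lower in the cortex and 0 and 7, respectively, in striatal tissue, with sums of 3363 to 4548 CPM in control and 1698 to 2266 in Trrap-FBΔ cortex, and 2447 to 2822 and 1505 to 1720 in the striatum. Of 18 markers of mature neurons 6 fell in the cortex and 7 fell in the striatum, and their sums were 14227 to 15793 and 12688 to 13426 CPM in the cortex and 10534 to 11369 and 8900 to 9161 in the striatum. All 10 microglia markers were lower in the cortex and 7 in the striatum (404 to 453 and 295 to 367, and 331 to 401 and 282 to 296 CPM). Mature oligodendrocyte markers were lower for 7 of 8 in the cortex and 0 in the striatum (1813 to 3204 and 1329 to 2057, and 3218 to 9551 and 4022 to 7039 CPM). Of 7 markers of oligodendrocyte precursors 6 fell in the cortex and 3 in striatal tissue (587 to 680 and 471 to 539, and 782 to 1093 and 692 to 852 CPM), and of 9 endothelial markers 7 and 2 (225 to 271 and 194 to 209, and 197 to 275 and 189 to 229 CPM). Of 10 markers of cortical excitatory neurons, the cells in which Camk2-Cre acts, 2 fell in the cortex, where the sums overlapped (1705 to 2083 and 1817 to 1948 CPM), and 5 fell in the striatum, where they did not (727 to 911 and 573 to 643 CPM). Astrocyte markers were mixed, with 3 of 10 higher in each tissue, 2 lower in cortical and 1 in striatal tissue, and sums that were apart in the striatum (4324 to 4732 in control and 3967 to 4284 CPM in Trrap-FBΔ). The lists of striatal projection neurons, inhibitory neurons, blood and choroid plexus had at most 1 call in either direction in each tissue, and their sums overlapped. No marker of these lists was at 0 in all libraries, and the part that cell composition plays in the members' changes was not tested.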

How the data were processed

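RNA from the cortex and striatum of 9 mice was sequenced as poly(A) stranded libraries with single-end reads of 51 bases. The authors aligned reads to GRCm38 with STAR 2.5.4b and counted uniquely mapped reads per Ensembl gene with featureCounts 1.5.0 in its stranded mode (versions per the submitters' processing notes), and the deposited values are raw counts with no normalization. The authors pooled 4 libraries per lane, and the lane of each library is not given in the sources used here.

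The quasi-likelihood test of edgeR (version 4.0.16, R 4.3.3) was applied after filterByExpr and TMM scaling, in the 8 libraries of each genotype or tissue contrast and in all 16 for the interaction, with Benjamini-Hochberg adjustment over all genes tested and a threshold of 0.05. DESeq2 1.42.0 was an alternative, as were other scalings and filters, sex as a covariate, a test against 1.2-fold, a replicate block and leaving out each library. CPM are TMM-scaled, and CPM per kilobase use the APPRIS principal transcript of GENCODE M21 (GRCm38), which also gave coordinates and symbols for 53706 of the 53801 identifiers. Shares are of all assigned counts. Promoter sequences are RefSeq's (GRCm38.p6). The test was checked on simulated counts.

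The members, lists, tests and named genes were chosen with earlier results of these data known. Named were the mitochondrial genes, the member of each complex with the highest level per kilobase, up to 3 called members per complex and genotype contrast with groups apart, the 5 smallest interaction p, up to 4 per direction in each tissue contrast, isoforms and paralogues, complex II, and list genes past the threshold in both tissues, of which examples are given. Ndufb7, Atp5s, Ndufa12, Atp5l and the list genes called in 1 tissue were named after their values were seen. Libraries were taken as replicates from separate mice. Tissues of 1 mouse share the animal by the labels: deviations from group means correlated at 0.0845 to 0.244 in 7 same-mouse pairs (median 0.226) and at -0.173 to 0.123 in 25 pairs of other mice. Genotypes share no mouse and were not paired. Libraries held 28743866 to 48761429 counts, and intervals of 0 counts cover counting error only.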

Additional observations from a re-analysis of the deposited data

Results flagged for a closer look

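In each group of 4 libraries the gap of the highest or lowest value to its neighbour was set against the whole range (Dixon's test at its 95% critical value). Of 204 groups looked at 18 passed, where chance passes about 5%. Control striatum 63 was the high library in 8 of them. It had 1.09% of counts on mitochondrial rRNA (group median 0.836%), 0.314% on nuclear complex I (0.270%) and 0.116% on nuclear complex III (0.101%). Its CPM were 165 for Sdhb (group median 139), 42.3 for Ndufb3 (32.1), 175 for Atp5o (145), 145 for Ndufb8 (118) and 287 for Cox6b1 (233). Trrap-FBΔ cortex 57 was the high library in 7. It had 0.303% of counts on nuclear complex I (group median 0.262%) and 0.213% on nuclear complex IV (0.175%), and CPM of 242 for Ndufa4 (195), 78.8 for Ndufs8 (66.8), 135 for Ndufb8 (105), 114 for Uqcr11 (85.4) and 297 for Cox8a (244). The other 3 were a low value of 4592 CPM for mt-Nd5 in Trrap-FBΔ cortex 61 (group median 5990), a high one of 87.6 for mt-Nd6 in control cortex 55 (67.8) and a low one of 250.3 for Sdha in control cortex 55 (297).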

How the results depend on the processing

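The number of called members was most sensitive to the size of change required: against 1.2-fold it was 0 of 90 in the cortex, 1 in the striatum (Cox6b2), 2 between the tissues of controls (Cox6b2 and Cox7a1) and 3 between those of Trrap-FBΔ. Leaving out 1 library gave 7 to 16 calls by genotype in the cortex (main 12) and 8 to 20 in the striatum (13), 0 to 1 for the interaction (0), and 6 to 16 between tissues in controls (14) and 19 to 30 in Trrap-FBΔ (26). For the interaction DESeq2 and no filter each gave 1 call, Cox6b2. The tissue comparison in controls gave 22 calls with upper-quartile scaling and 23 with sex as a covariate. The replicate block gave 0 calls for the interaction, 13 between tissues in controls and 26 in Trrap-FBΔ. All other counts stayed within 1.5 times the main one. Of the single-gene values recomputed, 3858 kept direction and side of the threshold, 161 lost and 61 gained the call, 12 untested values moved beyond the spread and 0 reversed. In the cortex Ndufb3, Ndufs8, Atp5b and Atp5o, and in the striatum Sdhd, Uqcrh, Cox5a, Cox6b2, Cox7b, Atp5b, Atp5g1 and Atp5o, were called under every setting but the 1.2-fold test. The causes were not tested. Counts of Cox8b and Cox8c were too low to test.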

Other observations

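Gm15920, the processed pseudogene of the complex I gene Ndufa12, took 1 of 2 levels by mouse in both tissues. Its CPM were 9.98, 11.1, 9.63 and 11 in the cortex of mice 55, 63, 59 and 61, and 5.77, 5.61, 6.13 and 5.43 in that of mice 58, 64, 57 and 60. In the striatum mice 63, 59 and 61 had 14.5, 11.8 and 12.0 CPM, and mice 58, 64, 65, 57 and 60 had 5.60, 5.70, 6.13, 6.27 and 6.51. Ndufa12 itself had 27.6 to 38.2 CPM in the cortex and 32.4 to 43.9 in the striatum. By the labels mice 55, 59, 61 and 63, with the higher level, were female. Of those with the lower level, mouse 57 was female and mice 58, 60, 64 and 65 were male. The difference was noticed in the data, and neither it nor its relation to sex was tested.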
